A study of Mus musculus with 4 samples.

Results

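Among the 8795 merged GR regions of wild-type mouse liver, 1234 were narrower than 1500 bp, were placed outside genes by the deposited annotation and carried no E2A peak. A further 14 without E2A were wider, and 1 of the 1234 also held a peak annotated to an exon. These intergenic regions with GR but not E2A were chosen by the measured peak calls. Peaks of the 2 GR replicates that shared at least 1 bp were merged, E2A peaks were merged in the same way, and a GR region was kept when it was narrower than 1500 bp, shared no base with an E2A region, held no peak annotated as promoter, and began with a peak annotated as distal intergenic or downstream of a gene. GR presence, E2A absence, width and annotation therefore describe the choice and were not tested. Motif content was not used in the choice, and it is the only property tested here.

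The 4 ChIP-Seq samples came from livers of male C57BL/6 mice with the genotype E47+/+, fed chow and collected at ZT 10, which is 10 h after lights on. GR was precipitated with a Proteintech antibody and E2A with a Santa Cruz antibody, in 2 biological replicates each, and the study describes both as done in the same livers. The labels call the mice untreated. The study's main text says that livers for GR ChIP-Seq were collected in the late afternoon, when endogenous corticosterone rises, and names no treatment there. The description of the study's supplementary peak list, by contrast, calls the livers Dex-treated (Dex is dexamethasone, a synthetic glucocorticoid). The hormone state of the livers is therefore not settled here. The deposited GR lists are named with replicate numbers opposite to those of the labels, and the label numbers were used. The descriptions of both E2A samples name a GR ChIP, and that of the second names E47-/- mice. Titles, antibody and genotype all give E2A in E47+/+ mice, and groups were taken from the titles. Frozen liver was homogenized whole, so a peak can come from hepatocytes or from any other liver cell. The lists hold 4291 and 7334 GR peaks and 4028 and 1892 E2A peaks, with positions alone. The authors reduced the libraries of each antibody to the same number of read pairs, and how many reads lay behind a single peak is not among the values.

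The glucocorticoid receptor (GR) is a hormone-activated transcription factor that regulates glucose, lipid and amino acid metabolism in the liver and is the target of anti-inflammatory steroids. It can bind DNA directly as a dimer at a palindromic glucocorticoid response element (GRE), composed of a pair of half-sites around a short spacer, or reach chromatin through other factors. E2A is the gene product, E47 among its forms, that binds E-boxes as a basic helix-loop-helix factor. STAT5 is the signal transducer downstream of growth hormone in hepatocytes and is known to act together with GR.

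The sites with the sharpest GRE were read first. A GRE was searched as GNACANNNTGTNC, on both strands, within the central 200 bp of a region, with at most 1 mismatch to the fixed letters. It was present in 382 of the 1234 regions, and 104 regions held it without a mismatch. From 52 regions called in both GR replicates that could be printed with a perfect match, the 10 in which it lay nearest to the region centre are shown, because they display the element itself. Each line is the plus strand of mm10, with the 13 letters of the match in capitals.
Dcaf4 region, chr12:83544959-83544987: gaggagagGGACAGGATGTTCctggagta
Cyp2a22 region, chr7:26981652-26981680: caattacaGGACACAGTGTTCtgcaccat
Ptgds region, chr2:25478491-25478519: gcaaagagGGACAGAGTGTGCtgtgccag
Setmar region, chr6:108093581-108093609: tcacaagaGCACATCTTGTTCtgaactgg
Trim72 region, chr7:128031672-128031700: ttgtccctGAACATAATGTGCtttcatgc
Tmem50a region, chr4:134918490-134918518: atttaccgGAACAACTTGTTCttaggtgt
Dysf region, chr6:84225114-84225142: gcacctagGCACAGAGTGTTCtatctact
Ly6f region, chr15:75314604-75314632: tcgtctaaGGACAGGCTGTTCtggtggtc
Creld2 region, chr15:88831631-88831659: atccccagGGACACGGTGTTCtgttcacc
Ppp1r3b region, chr8:35415564-35415592: actaagttGAACACTATGTGCccactcaa
The gene in each name is the nearest one in the deposited annotation, which does not make it the regulated gene. In the Dcaf4 and Cyp2a22 regions the middle of the GRE lay 0.500 bp from the region centre, and in the Ppp1r3b region 10.5 bp from it. The distances from these 10 regions to the nearest E2A region ran from 4678 bp (Tmem50a) to 768220 bp (Dysf).

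GREs without a mismatch also stood in regions whose nearest gene was listed for its known role in glucocorticoid and glucose metabolism. These are shown for every such region at a gene of the lists of classic glucocorticoid targets and of glucose handling, beside the Ppp1r3b site above.
Ddit4 region, chr10:59974266-59974294: cagagccaGAACACAATGTTCtcagctca
Errfi1 region, chr4:150800082-150800110: ctgataaaGGACAGAGTGTCCttggctcc
Klf9 region, chr19:23038417-23038445: ttcccaaaGCACAAAGTGTCCcattctgg
Tsc22d3 region, chrX:140505958-140505986: ggactaggGTACAGAATGTACccagactt
G6pc region, chr11:101360876-101360904: aaagagcaGGACACGGTGTACcataagac
Tsc22d3 encodes GILZ, a classic anti-inflammatory GR target, and G6pc encodes the catalytic subunit of glucose-6-phosphatase, the last enzyme of gluconeogenesis. The Errfi1 and Klf9 regions were called in both GR replicates, and the Ddit4, Tsc22d3 and G6pc regions in replicate 1 only. The Ddit4, Errfi1 and Klf9 regions lay 22385, 53562 and 102554 bp upstream of the gene start, and the Tsc22d3 region 36454 bp downstream of it. The G6pc region lay 6579 bp upstream of the gene start and 1200 bp from an E2A region, whereas the Tsc22d3 region lay 2175161 bp from one.

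Across the 105 GREs without a mismatch, the 210 half-sites read toward the spacer were GAACA in 35.2%, GGACA in 32.9%, GTACA in 17.6% and GCACA in 14.3%. The open second letter of the half-site was thus a purine in most of them. Among the 311 matches with 1 mismatch, the mismatch fell on the letter next to the spacer in 40.2%, on the outermost letter in 30.2%, and on the inner A and C of the half-site in 19.3% and 10.3%. The centre of the GRE lay a median of 32.5 bp from the region centre, and 257 of 382 regions (67.3%) had it within 50 bp. One match was found in 351 regions, 2 matches in 29 and 3 or more in 2.

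GREs were more frequent in the intergenic regions without E2A than in those with E2A. A GRE was present in 31.0% of the 1234 regions (95% Wilson interval 28.4 to 33.6%) and in 18.6% of the 603 intergenic GR regions that shared a base with E2A (15.7 to 21.9%). The odds ratio was 1.97 (95% interval 1.55 to 2.49, two-sided Fisher's exact test, p = 1.3e-08, adjusted p = 1.0e-07 over 85 motif tests). Without a mismatch the shares were 8.43% and 2.49%. Regions with E2A were wider, with a median of 456 bp against 364 bp, so the central 200 bp covered less of them. An odds ratio within bins of equal width, added after seeing the data, is 1 of the 18 alternatives given below, which ran from 1.55 to 3.61. Its own value is not given here. All GR regions under 1500 bp, promoters included, held a GRE in 15.8%. Regions are not biological replicates, and these intervals and p-values cover counting error over regions of 2 pooled replicates. The difference was present with each GR replicate alone, where the odds ratio was 2.05 without replicate 2 and 1.70 without replicate 1.

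The background of the same neighbourhoods was lower. Flanking windows of the same length, starting 500 bp beyond each region edge and free of called peaks, held a GRE in 163 of 2330 (7.0%), an odds ratio of 5.96 for regions over flanks (4.88 to 7.28, Fisher's exact test, adjusted p = 5.7e-74). A perfect GRE was found in 5 flank windows (0.215%) and in 104 regions. Flanks lie beside the same regions, and the tests against flanks treated both as independent. Their intervals and p-values leave this matching out. Intergenic E2A regions without GR held a GRE in 7.13% of 603, close to the flanks of the GR regions, and the odds ratio against them was 5.84 (4.19 to 8.14, Fisher's exact test, adjusted p = 1.5e-32). Intronic GR regions without E2A, by contrast, held a GRE in 30.2% of 1393. The odds ratio between intergenic and intronic regions was 1.04 (0.880 to 1.23, Fisher's exact test, adjusted p = 0.852). It fell on the other side of 1 in 100-bp windows (0.991) and in regions called in both replicates (0.995).

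**Figure D1:**
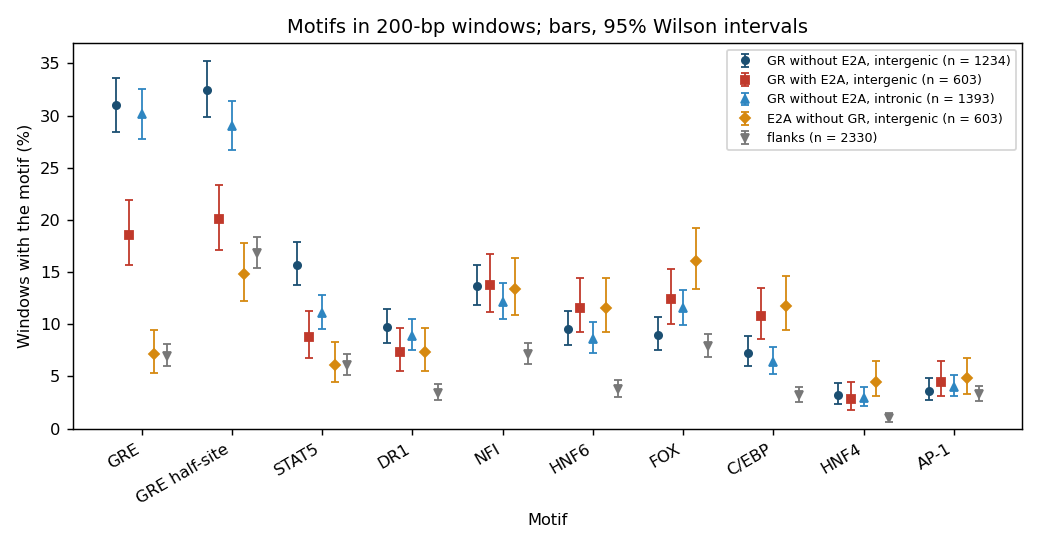
Share of 200-bp windows that held each of 10 motifs (y axis, percent), for the intergenic GR regions without E2A and 4 comparison sets, with points as shares and bars as 95% Wilson intervals. GRE stands at 31.0% and 30.2% in the intergenic and intronic regions without E2A, at 18.6% with E2A, and at 7.13% and 7.0% in E2A regions without GR and in flanks.

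Of the 16 other motifs, the GRE half-site and the STAT5 motif were more frequent without E2A than with it, and none of the others passed the test. The single half-site AGAACA was present in 32.5% against 20.1% (odds ratio 1.92, 1.52 to 2.42, Fisher's exact test, adjusted p = 1.3e-07), and it overlaps the GRE where that carries the same letters. The STAT5 motif TTCNNNGAA was present in 15.7% against 8.79% (odds ratio 1.94, 1.40 to 2.67, Fisher's exact test, adjusted p = 1.6e-04), with 7.39% over all GR regions. That STAT5 difference lost significance without GR replicate 2 (odds ratio 1.46, Fisher's exact test, adjusted p = 0.181), without E2A replicate 1 (1.41, adjusted p = 0.286) and in regions called in both GR replicates (1.48, adjusted p = 0.288). The STAT5 motif was also the 1 motif of 17 that passed against intronic GR regions without E2A, which held it in 11.1% (odds ratio 1.5, 1.20 to 1.88, Fisher's exact test, adjusted p = 0.00249). It did not pass there without GR replicate 2 (odds ratio 1.46, Fisher's exact test, adjusted p = 0.112), in 100-bp windows (1.31, adjusted p = 0.185) or in regions called in both GR replicates (1.80, adjusted p = 0.104). Motifs of liver factors were lower in value without E2A for C/EBP (7.29% against 10.8%, Fisher's exact test, adjusted p = 0.0574) and FOX (9.0% against 12.4%, adjusted p = 0.0893), neither past the threshold. C/EBP passed in 7 of its 13 alternatives, among them 400-bp windows (odds ratio 0.612, Fisher's exact test, adjusted p = 0.00212), GC bins (0.605, adjusted p = 0.0154) and without GR replicate 2 (0.559, adjusted p = 0.0221). FOX passed in 2, 400-bp windows and GC bins.

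The E-box shares of regions with and without E2A did not differ past the threshold. CANNTG stood in 69.1% of the intergenic regions without E2A, in 66.3% of those with E2A (odds ratio 1.14, 0.923 to 1.40, Fisher's exact test, adjusted p = 0.470) and in 68.1% of flank windows. Intergenic E2A regions without GR held CANNTG in 67.3%, CAGGTG in 12.6%, CAGCTG in 11.8% and CACGTG in 3.15%. The CANNTG share of E2A peaks was thus near that of flanks, so this count cannot tell regions bound by E2A from others. Of the E-box cores, CAGGTG was present in 16.0% of intergenic GR regions without E2A and in 16.3% of those with it. CAGCTG stood at 12.3% and 12.8%, and CACGTG at 5.11% and 4.31%. Against flanks, CACGTG (2.53% there, odds ratio 2.07, Fisher's exact test, adjusted p = 4.7e-04) and CAGCTG (8.80% there, 1.46, adjusted p = 0.00454) were more frequent in the regions, and CAGGTG (14.4% there, adjusted p = 0.413) did not pass. Both calls were lost in regions called in both GR replicates (adjusted p = 0.255 and 0.0949, Fisher's exact test, odds ratios 1.76 and 1.59), that of CACGTG also in 100-bp windows, and that of CAGCTG also within GC bins and without GR replicate 2 (odds ratio 1.24).

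Against their flanks, 11 of 17 motifs were more frequent in the intergenic regions without E2A and none was less frequent. After the GRE these included the STAT5 motif (15.7% against 6.09%, odds ratio 2.87, Fisher's exact test, adjusted p = 2.2e-18), DR1, the direct repeat of nuclear receptors such as PPARs and HNF4 (9.72% against 3.43%, odds ratio 3.03), HNF6 (9.56% against 3.78%, 2.69), NFI (13.7% against 7.12%, 2.07), C/EBP (7.29% against 3.18%, 2.40) and HNF4 (3.24% against 0.987%, 3.36). FOX (9.0% against 7.94%) and AP-1 (3.65% against 3.30%) did not pass. GC content was 48.6% in these regions and 50.1% in those with E2A, and 15.7% of their sequence was repeat-masked. Against E2A regions without GR, FOX (16.1% there, odds ratio 0.516, Fisher's exact test, adjusted p = 8.0e-05), C/EBP (11.8% there, 0.589, adjusted p = 0.00858) and CRE (1.49% there against 0.243%, 0.161, adjusted p = 0.0135) were less frequent in the regions with GR. The STAT5 motif (6.14% there, odds ratio 2.85, Fisher's exact test, adjusted p = 1.1e-08) and the GRE half-site (14.8% there, 2.78, adjusted p = 1.4e-15) were more frequent in them. The C/EBP call was lost in regions called in both GR replicates (adjusted p = 0.109, Fisher's exact test, odds ratio 0.602) and without E2A replicate 1 (0.606). The STAT5 call was lost without GR replicate 2 (odds ratio 1.37) and without E2A replicate 1 (1.72), and the CRE call, which rests on 3 and 9 windows, was lost in 4 alternatives, among them without GR replicate 2 (0.256) and without E2A replicate 2 (0.216).

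Replicate support divided the 1234 regions into 390 called in both GR replicates, 328 in replicate 1 only and 516 in replicate 2 only. The 31.6% called in both compare with 31.1% over all 8795 merged GR regions. Regions called in both were wider, with a median of 451 bp against 324 and 332 bp in replicates 1 and 2 only. The share of intergenic GR regions with E2A that was called in both was 52.6%.

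The share of regions with a GRE was higher among those that both replicates called than among those called in 1. A GRE was present in 179 of 390 (45.9%, 41.0 to 50.9%) called in both and in 203 of 844 (24.1%, 21.3 to 27.0%) called in 1. The odds ratio was 2.68 (2.08 to 3.45, Fisher's exact test, adjusted p = 6.0e-13), and no other of the 17 motifs passed in this comparison. Within bins of equal width it was 3.63, an alternative added after seeing the data. Perfect GREs were present in 13.6% of the regions in both, 7.62% in replicate 1 only and 5.04% in replicate 2 only. In regions called in both replicates, GRE matches per 100 regions rose to 18.5 in the 50 bp beside the centre, from 2.31 and 0.513 in the outermost bins of a 1000-bp window. Within every replicate class the share was also higher without E2A than with it, at 45.9% against 24.9% in both, 27.4% against 12.7% in replicate 1 only and 21.9% against 10.4% in replicate 2 only. The odds ratio within these classes was 2.53, also added after seeing the data.

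The share of regions with a STAT5 motif differed between the replicate classes. It was present in 128 of 516 regions called in replicate 2 only (24.8%, 21.3 to 28.7%), in 49 of 390 called in both (12.6%, 9.64 to 16.2%) and in 17 of 328 called in replicate 1 only (5.18%, 3.26 to 8.14%). This comparison was chosen after its values were seen. It sets 1 GR library against another and is given as a description, with no test. The odds ratio of replicate 2 only over replicate 1 only was 6.04, and it ran from 4.27 to 6.70 under 8 alternatives. The DR1 motif went the other way, with 6.98% in replicate 2 only and 13.1% in replicate 1 only (odds ratio 0.497), and GRE stood at 21.9% and 27.4%. Flank windows held the STAT5 motif in 6.39% around regions of replicate 2 only and in 5.36% around those of replicate 1 only.

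The order of the classes was alike in other GR regions. Among intronic GR regions without E2A the STAT5 motif was present in 18.9% called in replicate 2 only, 7.37% in both and 5.25% in replicate 1 only. Among intergenic GR regions with E2A the shares were 12.5%, 8.83% and 4.93%. Intergenic E2A regions without GR were split by E2A replicate instead. They held the motif in 10.3% of 126 called in replicate 2 only, 5.56% of 90 in both and 4.91% of 387 in replicate 1 only. This was not tested, and which E2A replicate shares a liver with which GR replicate is not known. Replicate 2 of GR also had more peaks (7334 against 4291), and its own regions had a higher repeat-masked share (18.2% against 14.3%). The part of these in the STAT5 result was not tested. With 2 livers, a difference between animals and one between preparations cannot be told apart.

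**Figure D2:**
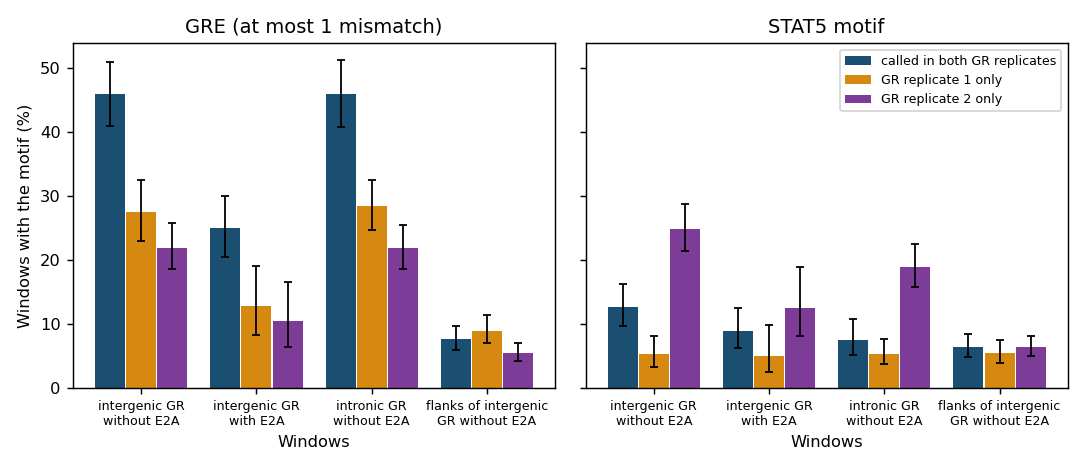
Share of 200-bp windows with a GRE (left) or a STAT5 motif (right), in percent, for regions called in both GR replicates, in replicate 1 only and in replicate 2 only, with 95% Wilson intervals as bars. GRE is highest in regions called in both (45.9% without E2A), the STAT5 motif in regions of replicate 2 only (24.8% without E2A), and flanks run from 5.36% to 8.93% for GRE and from 5.36% to 6.39% for the STAT5 motif.

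Among regions of replicate 2 only, STAT5 motifs were most frequent near the centre. The 6 of these regions in which the motif was nearest to the centre are shown as examples, chosen after seeing the data. The 9 letters of the motif are in capitals, on the plus strand of mm10.
Ghr region, chr15:3640231-3640259: ggaaactgtcTTCCACGAAcaacaaacat
P2ry1 region, chr3:60941589-60941617: gatcaaaaatTTCTCAGAAtgtactgact
Cxcl12 region, chr6:117060782-117060810: taccactatcTTCTCGGAAacccttgggt
Plpp3 region, chr4:105328281-105328309: cttagcccagTTCATTGAActtcagtaat
Il1r1 region, chr1:40172256-40172284: tctgtgcagtTTCCAGGAAccagtggctc
E2f7 region, chr10:110707476-110707504: cagccctagaTTCCTGGAActtgactttc
Ghr encodes the growth hormone receptor and Il1r1 the interleukin-1 receptor. The Ghr region lay 56768 bp upstream of the gene start, and the Il1r1 region 52640 bp upstream. In regions of replicate 2 only the motif reached 8.14 and 8.72 matches per 100 regions in the 50-bp bins on either side of the centre, against 1.52 and 1.22 in regions of replicate 1 only. Regions called in both had 3.08 and 3.85 there, and their highest bin, 6.92, lay 100 to 150 bp from the centre.

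**Figure D3:**
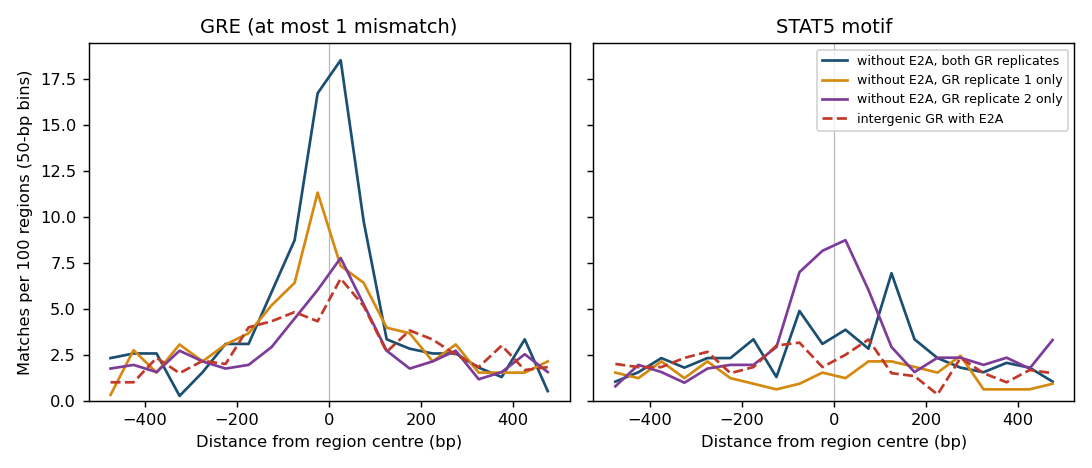
GRE (left) and STAT5 motif (right) matches per 100 regions in 50-bp bins, by distance from the region centre in bp, for the 3 replicate classes of intergenic GR regions without E2A and for intergenic GR regions with E2A. GRE peaks at the centre of regions called in both replicates (18.5), and the STAT5 motif at the centre of regions called in replicate 2 only (8.72).

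GRE and STAT5 motif were also counted together. Of the 1234 regions, 331 held a GRE alone (26.8%), 143 a STAT5 motif alone (11.6%), 51 both (4.13%) and 709 neither (57.5%). In regions called in both replicates 40.8% held a GRE alone and 7.44% a STAT5 motif alone, whereas in replicate 2 only these were 16.5% and 19.4%. Neither motif was found in 68.3% of the regions of replicate 1 only.

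The regions were narrow and lay far from gene starts. Their median width was 364 bp (quartiles 300 and 473 bp). The median distance to the nearest transcription start site was 21206 bp, with 109 regions within 3000 bp (8.83%) and 168 beyond 100000 bp (13.6%), and 814 lay upstream of the nearest start and 420 downstream. Annotation was distal intergenic in 1158 and downstream of a gene in 76. In the GENCODE annotation of the same build, which holds more non-coding genes, 250 of the 1234 (20.3%) overlapped a gene body and 85 (6.89%) a protein-coding one, so the label intergenic holds for the deposited annotation only. The nearest E2A region was a median of 29901 bp away (quartiles 6702 and 136185 bp), with 26 regions within 500 bp of one and 351 farther than 100000 bp.

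Just inside the limits of the choice, wide regions measured 1467 and 1477 bp (near Gstp1 and Ntsr2), and the narrowest excluded by width was 1502 bp (near Zfp445). The regions closest to E2A lay 11 bp (Cyp8b1), 19 bp (Gm19345) and 20 bp (Wrnip1) from its edge, and the smallest overlaps among the regions left out were 41, 49 and 56 bp (near Rassf3, Chd2 and B3galnt1). Cyp8b1 encodes the sterol 12-alpha-hydroxylase of bile acid synthesis. E2A absence also depended on the length of the E2A lists, since without E2A replicate 1 the same rule kept 1575 regions and without replicate 2 it kept 1315.

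**Figure D4:**
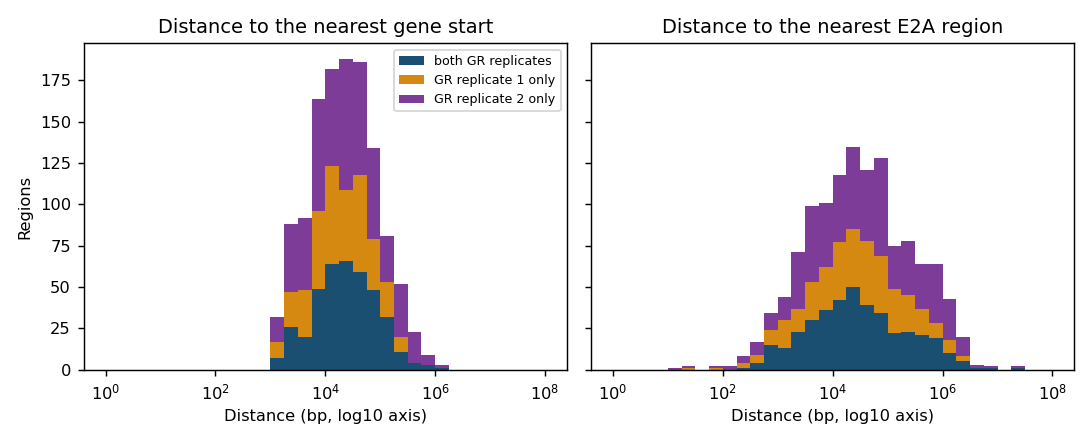
Number of intergenic GR regions without E2A by distance to the nearest gene start (left) and to the nearest E2A region (right), in bp on a log10 axis, stacked by GR replicate class. The medians are 21206 bp and 29901 bp, and few regions lie within 500 bp of E2A.

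Some regions lay near others of the set. Another region of the set lay within 10000 bp of 349 regions (28.3%), in 145 groups, the largest of 7, and within 50000 bp of 589 (47.7%). They were distributed over the autosomes at 0.295 (chromosome 16) to 0.696 (chromosome 11) per Mb, and chromosome X had 12 in all, 0.0702 per Mb.

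The nearest genes numbered 906, of which 710 had 1 region, 116 had 2 and 80 had 3 or more. Promoter-bound GR was present at 401 of them (44.3%), a GR region with E2A at 349 (38.5%) and any E2A region at 453. At 380 genes (41.9%) the intergenic regions without E2A were the only GR regions assigned. The same shares for the nearest genes of other GR regions are not given here, so these cannot be read as particular to this set. Among 21896 protein-coding genes of RefSeq, 776 were the nearest gene of at least 1 region (3.54%), compared with 2.00% for intergenic regions with GR and E2A.

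Ptpn1, the phosphatase PTP1B that dampens insulin and leptin receptor signalling, had the most regions, 10. All lay upstream, between 71233 and 103716 bp from its start (chr2:167828267-167861094), and 7 were called in both replicates. Of the 10, 5 held a GRE and 2 a GRE without a mismatch. Ptpn1 had 1 GR region with E2A, and the nearest E2A region lay from 4523 to 36690 bp from the 10. The next genes were 4921525O09Rik, Etfbkmt and Gm16551 with 6 each. The 6 at Gm16551 were called in replicate 2 only, none held a GRE and 3 held a STAT5 motif, whereas of the 6 at Etfbkmt 2 held a GRE. Poc1a, Bcl6, Eif1a, Ahcy, Ly6f and 4930503O07Rik had 5 each. Of these, Eif1a had 4 with a GRE, and 4 of the 5 at Poc1a were called in both replicates. The part of intergenic length in these counts was not tested.

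Of the 285 genes on lists of hepatic functions and cell type markers that RefSeq holds, 73 had at least 1 region, with 139 regions in all and 56 of them called in both replicates. For these and the list counts below, the set of 1234 had 31.6% called in both replicates and 41.8% in replicate 2 only. At 51 of these 73 genes GR and E2A also shared another region, and 15 had no E2A region. Most lists were drawn up for liver functions, the share over all protein-coding genes was 3.54%, and no test was made.

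Genes of glucose and insulin action were represented by several regions. Glucose handling had 7 of 20 genes (35.0%). Pck1, which encodes the gluconeogenic enzyme PEPCK, had 3 regions 4787, 5769 and 9159 bp upstream, all called in both replicates and all without a GRE. G6pc had 4 regions from 5906 to 14064 bp upstream, of which 1 was called in both, and the region with the perfect GRE is printed above. Ppp1r3b, a glycogen-targeting subunit of protein phosphatase 1, had 3 and Slc2a2, the glucose transporter GLUT2, Pklr, Ppp1r3c and Pfkfb3 had 1 each. Insulin signalling and FoxO had 6 of 16 genes (37.5%), among them Ptpn1, Pik3r1 with 3, and Foxo1, Trib1 and Igfbp1 with 1 each. The Foxo1 region lay 233318 bp from the gene start.

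Classic glucocorticoid targets had 8 of 24 genes (33.3%) with 20 regions, 11 of them called in both replicates and 8 with a GRE. Tat, the tyrosine aminotransferase long used as a GR model gene, had 4, of which 3 were called in both, at 2276, 5723 and 7579 bp upstream. Ddit4, Errfi1 and Klf15 had 3 each, Klf9, Gadd45g and Tsc22d3 had 2 and Sgk1 had 1. Ddit4, an inhibitor of mTOR signalling, and Sgk1 had no E2A region assigned, and Klf9 had 5 GR regions with E2A beside its 2 without. Amino acid catabolism and the urea cycle had 9 of 24 genes (37.5%) with 16 regions, 10 of them in both replicates. Cps1 had 3, Mat1a and Arg1 2 each, and Ass1, Gpt2, Got1, Hpd and Aass 1 each, with Tat counted here too.

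Growth hormone, STAT and cytokine feedback had 8 of 20 genes with 17 regions, 5 of them in both replicates. Bcl6, a transcriptional repressor with male-biased expression in liver, had 5, Il1r1 had 5 of which 4 were in replicate 2 only, and Cish, Ghr, Igf1 and Mup20 had 1 each, all in replicate 2 only. Igfbp2 had 2 and Igfbp1 had 1. The Igf1 region lay 146749 bp from the gene start and 310 bp from E2A. Hepatocyte transcription factors had 8 of 22 genes (36.4%). Cebpa had 4 regions, 2 of them in both replicates, and the 4 at Xbp1 were all in replicate 2 only, 2 of them with a STAT5 motif. Foxa1, Foxa2, Cebpg and Onecut2 had 1 each, and Nfib and Nr5a2 had 2 each.

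Lipid genes and the remaining lists had shares from 5.26% to 25.9%. Fatty acid and triglyceride metabolism had 6 of 25 genes (24.0%), among them Acacb with 2 regions and Dgat2, Gpam, Ppargc1a and Srebf1 with 1 each. Cholesterol and bile acids had 4 of 19 (21.1%) with 10 regions, 2 of them in both replicates. Among these were Cyp7a1, the rate-limiting enzyme of bile acid synthesis, and Cyp8b1 with 3 each and Insig1 with 2. For this list 7 of 19 genes had an intergenic GR region with E2A. Apolipoproteins had 2 of 15 (Apoa5 and Apob), with 5 of 15 for regions with E2A, and acute phase and plasma proteins 7 of 27 (25.9%), with 11 of 27 for regions with E2A. Counts for regions with E2A were lower in other lists, with 4 of 20 for glucose handling and 2 of 16 for insulin signalling. They were 3 of 20 for growth hormone and cytokine feedback and 5 of 22 for hepatocyte transcription factors. The set with E2A is also smaller, with 603 regions against 1234, and reached 2.00% of protein-coding genes against 3.54%. None of these differences was tested. The circadian clock had Tef alone, 1 of 19, with 3 regions. E proteins, Id and other basic helix-loop-helix genes had 2 of 21, Id3 with 2 regions and Srebf1. Nuclear receptors had 6 of 29 (20.7%), including Nr3c1, which encodes GR itself, with 1 region in replicate 2 only.

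Markers of liver cell types were compared in the same way. Hepatocyte markers had 4 of 5 genes (Alb with 4 regions, Tat with 4, Cyp2e1 with 3 and Ttr with 1). Tat is also on the list of classic glucocorticoid targets. Kupffer cell, stellate cell and cholangiocyte markers had 0 of 5 each. The sinusoidal endothelium list had Stab2 and the lymphocyte list Ptprc, 1 of 5 each, both called in both replicates. Ptprc is not limited to lymphocytes among leukocytes. For intergenic GR regions with E2A, hepatocyte markers had 2 of 5 and every other cell type 0 of 5. These counts say where GR peaks lie, not how much of each cell type the livers held.

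**Figure D5:**
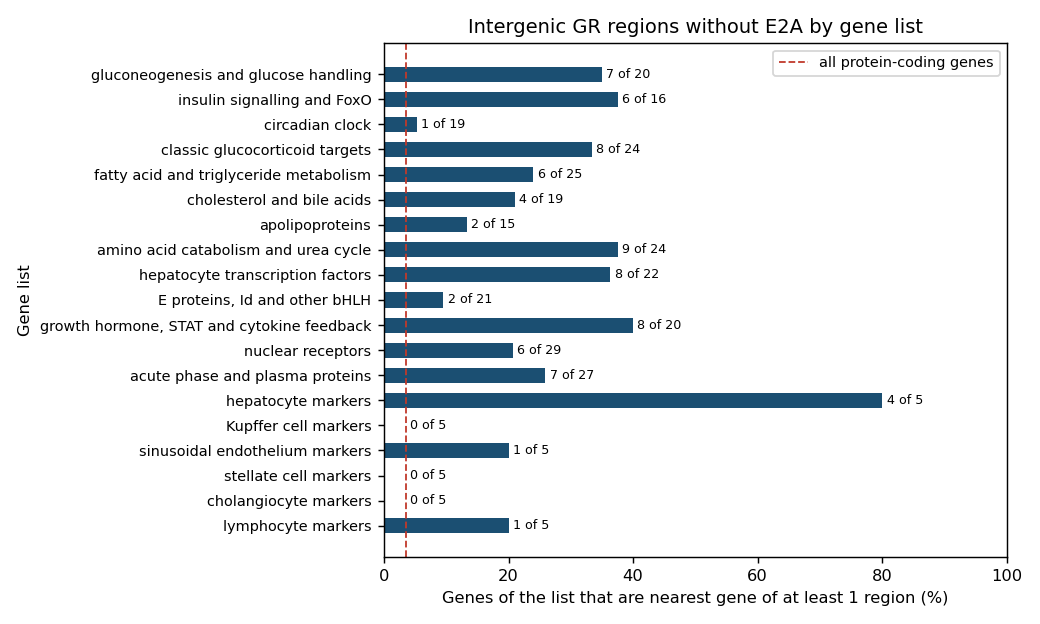
Share of the genes of each list that were the nearest gene of at least 1 intergenic GR region without E2A (x axis, percent), with the counts beside the bars and a dashed line at the 3.54% of all protein-coding genes. Hepatocyte markers stand highest with 4 of 5 and 3 non-hepatocyte marker lists have none.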

How the data were processed

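GR and E2A ChIP-Seq was done in wild-type mouse liver, 2 biological replicates each. Per the study's methods and the labels, alignment to mm10 was done by the authors using BWA-MEM (BWA 0.7.13 in the submitters' processing notes). They removed duplicates with Picard, kept uniquely mapped read pairs, reduced all libraries of an antibody to the same number of read pairs, and ran MACS2 separately for every sample. The notes give Picard 1.119 and MACS2 2.1.0. The methods name other versions of both. The peak threshold and the control used in calling are not given in the sources used here. Per peak, the deposited tables give its positions, its width and how far the closest gene start lies, all in bp and with no normalization. The deposited BED files hold the same positions and were not used further. Precision is set by the number of regions, and Wilson intervals (95%) cover counting error only.

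Regions, gene lists and motifs were chosen with earlier results of these data known. Motifs were counted on both strands in the central 200 bp of each merged region of GRCm38.p6 (RefSeq, the same assembly as mm10). Of the nearest genes, 84.2% of those with a RefSeq number started within 1000 bp of the RefSeq gene. The motifs were the GRE (GNACANNNTGTNC, at most 1 mismatch), its half-site (AGAACA), DR1 (AGGTCANAGGTCA, at most 2), NFI (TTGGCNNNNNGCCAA, at most 2), CTCF (CCANNAGNNGGC), C/EBP (TTRCRYAA), HNF4 (CAAAGTYCA), FOX (TGTTTAY), HNF6 (ATYGATY), STAT5 (TTCNNNGAA), AP-1 (TGASTCA), CRE (TGACGTCA), ETS (CCGGAAGY) and the E-box (CANNTG), with its cores CACGTG and also CAGCTG and also CAGGTG. Two-sided Fisher's exact tests compared the shares, adjusted by Benjamini-Hochberg over 85 tests, with a threshold of 0.05. The intervals of odds ratios are Woolf intervals, and odds ratios within bins are Mantel-Haenszel estimates. Repeat-masked letters are those in lower case in the RefSeq sequence. The genes named are the 10 with the most regions, every gene of the fixed lists with a region, and those at printed sequences or at a limit of the choice. Some genes under this rule are not reported here. Python 3.11.15 was used with scipy 1.17.1, statsmodels 0.14.6 and pysam 0.24.0. The code was tested on simulated windows with planted motifs. Alternatives changed the window, mismatches, width, overlap, annotation, GC bins and replicates.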

Additional observations from a re-analysis of the deposited data

How the results depend on the processing

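Against regions with E2A, the GRE odds ratio ran from 1.55 (400-bp windows) to 3.61 (no mismatch) over 18 alternatives, and against flanks from 3.72 to 42.8 (no mismatch), all past the threshold. It was 4.43 to 11 against E2A regions without GR and 2.35 to 3.63 for both replicates against 1. Without a replicate it ran from 1.70 to 2.05 against regions with E2A. Against intronic regions it did not pass under any alternative and crossed 1 in 100-bp windows (0.991) and in regions called in both GR replicates (0.995), with 1.14 as the highest value. The number of other motifs that passed against regions with E2A was 2, became 7 in 400-bp windows and 4 within GC bins (C/EBP and FOX gained in both), fell to 1 in regions called in both GR replicates, and ran from 1 to 2 when a replicate was left out. The cause was not tested.

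With a replicate block, in which GR peaks of each number were split by the E2A peaks of the same number, the odds ratio was 2.00, and with crossed numbers, added after seeing the data, 1.66. The pairing of numbers with livers is not settled, since the GR lists carry opposite numbers, and the block was fitted for this comparison only. Of 258 alternatives for shares of other motifs, 227 kept direction and call, 22 lost significance, 9 gained it and 0 turned. For the ETS motif against flanks, regions called in both GR replicates and those without GR replicate 2 gave no odds ratio, since no flank held it. The unknown number of reads behind each peak and the 1892 peaks of E2A replicate 2 limit how far the absence of E2A can be read.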
